A study of Mus musculus with 10 samples.

Results

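Foxp1, Foxp2, Bcl11b, Meis2, Rarb, Rxrg, Zfp521 and Ikzf1 encode transcription factors used to define striatal projection neurons, and they are described here across translating-RNA libraries from the mouse striatum. The 8 genes were taken by their symbols from the 32531 genes counted in the deposited files, and all 8 were counted in every library. The study used translating ribosome affinity purification with sequencing (TRAP-seq), in which ribosomes that carry an EGFP-tagged Rpl10a protein are captured with anti-EGFP antibodies and their bound RNA is sequenced. All animals were adult mice of the Drd1-TRAP CP73 genotype, in which the Drd1 promoter drives the tag, on a background bred from FVB/N-Swiss Webster and C57BL/6 and kept for at least 9 generations on C57BL/6. Pull-downs from whole striatum came from mice with cocaine self-administration (cocaine 1 to 3), from a yoked control (yoked 1 to 3) and from mice with saline self-administration (saline 1 to 3), and 1 library of total striatal RNA served as input. What was given to the yoked mice, how the input animals were treated and the sex of the mice are not in the labels. Nor do these say that each library is a separate animal, so p-values below reflect the variation among these libraries, and that variation may be technical.

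Transcription factors of this kind bind short DNA motifs near genes and switch programmes of neuronal differentiation on or off. In the striatum they are expressed as medium spiny neurons form and many stay on in the adult, where direct-pathway neurons carry the D1 dopamine receptor (Drd1) and indirect-pathway neurons carry the D2 receptor (Drd2). The retinoid receptors among them work as pairs, in which a retinoic acid receptor joins a retinoid X receptor on a repeated half-site and responds to retinoic acid.

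Positions on GRCm38.p6 (the mm10 assembly) are from RefSeq. The forkhead genes Foxp1 (chr6:98925342-99522746) and Foxp2 (chr6:14901349-15441977) share chromosome 6. Bcl11b lies at chr12:107910403-108004145, Ikzf1 at chr11:11684962-11772930, Meis2 at chr2:115861264-116067537, Rarb at chr14:16430839-17082331 and Rxrg at chr1:167598362-167639623.

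RefSeq promoter windows, which run from 250 bases before to 50 bases after a start site, were found for 6 of the 8 genes, 10 windows in all. Rarb is shown because its transcript stood highest over the input among the 8 genes, and because its product binds a known kind of site. Its window at chr14:16575427-16575726, on the minus strand, held a DR5 element, the direct repeat that retinoic acid receptors bind, from 53 to 37 bases before the start. Capitals mark the DR5 element and, just after the start site, a TGACAG, the core letters of MEIS sites.
Rarb promoter: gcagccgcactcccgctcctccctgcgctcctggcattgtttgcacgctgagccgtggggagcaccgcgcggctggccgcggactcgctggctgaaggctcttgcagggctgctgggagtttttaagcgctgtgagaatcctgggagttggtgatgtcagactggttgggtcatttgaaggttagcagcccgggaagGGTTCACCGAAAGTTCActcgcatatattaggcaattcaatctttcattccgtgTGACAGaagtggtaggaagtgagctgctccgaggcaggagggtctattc
The DR5 element was searched on both strands and was present in 0.0974% of 32851 RefSeq mouse windows of the same length, and in 1 of the 10 windows of the 8 genes. The search by name allows more than one letter at some places. The stricter letters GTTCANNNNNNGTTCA, which the Rarb element also holds, occurred in 0.0761% of windows. The MEIS letters TGACAG, on either strand, occurred in 19.2% of windows.

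Foxp1 is shown beside it because its 3 windows were the only ones among the 10 that held the shorter forkhead letters TGTTTA on either strand, which occur in 13.4% of all windows. The window below lies at chr6:99266466-99266765 on the minus strand. Capitals mark TGTTTA at both of its places and the reverse strand of TGACAG.
Foxp1 promoter: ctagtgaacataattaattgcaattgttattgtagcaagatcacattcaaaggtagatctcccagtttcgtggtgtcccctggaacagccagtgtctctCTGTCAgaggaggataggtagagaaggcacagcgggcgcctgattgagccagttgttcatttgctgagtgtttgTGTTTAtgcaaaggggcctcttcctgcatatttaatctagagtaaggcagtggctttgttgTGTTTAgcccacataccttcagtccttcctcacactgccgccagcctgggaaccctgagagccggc
The longer forkhead motif TGTTTAC, which contains TGTTTA, was in none of the 10 windows and in 3.65% of all windows. TGGGAA, the core of Ikaros sites, was in 2 of the 10 windows, 1 each of Foxp1 and Rxrg, and in 25.6% of all windows. A match of letters is a description of the sequence, and these data hold no measurement of binding.

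Levels are given in CPM (counts-per-million), a gene's reads scaled to the sum of the library's reads counted to genes. Reads counted to genes numbered 32169018 to 33432793 in cocaine, 38611396 to 45242175 in yoked and 12528806 to 28408236 in saline libraries, against 40519976 in the input, so that 3 counts correspond to 0.0663 to 0.239 CPM in the pull-downs. Reads of the ribosomal RNA gene Rn45s took 11.4%, 16.9% and 20.5% of gene counts in cocaine 1 to 3, 14.7%, 15.2% and 15.1% in yoked 1 to 3, and 10.5%, 12.8% and 14.3% in saline 1 to 3. Each group was sequenced on a lane of its own, per the sample descriptions, and the effects of lane and group cannot be told apart. Beyond the neurons of interest, the input held RNA of pituitary genes at a summed 2682 CPM, saline 1 held 388 CPM and the other 8 pull-downs held 0.420 to 6.23 CPM. All 7 measured D1 markers were above the input in each of the 9 pull-downs (median 2.27-fold), and all 6 D2 markers were below it in each (median 0.154-fold). Counts of the 8 genes ran from 307, for Ikzf1, to 53828, for Foxp1, per library. Exon lengths were not used, so levels are compared between libraries and not between genes.

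Foxp1 is a forkhead factor that mostly represses transcription and is present in medium spiny neurons of both pathways. It stood at 1341, 1153 and 849 CPM in cocaine 1 to 3, at 1219, 1236 and 977 CPM in yoked 1 to 3, and at 1329, 1308 and 1309 CPM in saline 1 to 3, against 1319 CPM in the input. Cocaine 3 and yoked 3 were the lowest of the 9, while the saline libraries lay close to each other, below cocaine 1 and above all 3 yoked libraries. Group means were 1114 ± 248, 1144 ± 145 and 1315 ± 11.8 CPM for cocaine, yoked and saline (SD, n = 3 each).

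Foxp2, the relative known for its part in vocal and motor learning, had 363, 281 and 261 CPM in cocaine 1 to 3. It had 303, 302 and 300 CPM in yoked 1 to 3, and 323, 322 and 356 CPM in saline 1 to 3, against 224 CPM in the input. Every pull-down was above the input, and cocaine 1 was the highest of all. The yoked libraries lay below the saline ones without overlap in CPM, while the cocaine libraries spread across both groups (means 301 ± 54.0, 302 ± 1.30 and 334 ± 19.6 CPM for cocaine, yoked and saline).

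Bcl11b, also called Ctip2, is a zinc finger factor needed in the mouse for medium spiny neurons to mature. Its level was 692, 641 and 507 CPM in cocaine 1 to 3, 661, 737 and 518 CPM in yoked 1 to 3, and 747, 791 and 715 CPM in saline 1 to 3, against 657 CPM in the input. All 3 cocaine libraries were below all 3 saline libraries, and yoked 2 was inside the saline range. The lowest values were again in cocaine 3 and yoked 3.

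Zfp521 is a zinc finger protein that promotes early neural differentiation of mouse stem cells. It was read at 44.6, 39.6 and 37.7 CPM in cocaine 1 to 3, at 41.4, 38.3 and 30.5 CPM in yoked 1 to 3, and at 49.2, 45.3 and 57.4 CPM in saline 1 to 3, against 45.2 CPM in the input. The saline libraries were above every cocaine and every yoked library. Means were 40.7 ± 3.58 CPM in cocaine, 36.7 ± 5.61 CPM in yoked and 50.6 ± 6.15 CPM in saline libraries (SD, n = 3 each).

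Ikzf1 encodes Ikaros, a zinc finger factor of lymphoid cells and microglia that also takes part in forming enkephalin neurons of the mouse striatum. Its level was 24.8, 21.9 and 15.2 CPM in cocaine 1 to 3, 22.1, 21.6 and 18.5 CPM in yoked 1 to 3, and 23.4, 24.5 and 18.8 CPM in saline 1 to 3, against 14.5 CPM in the input. The 3 groups overlapped throughout. Library 3 was the lowest of its group in each case.

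Meis2 is a homeodomain factor that binds DNA together with PBX proteins. It had 697, 645 and 541 CPM in cocaine 1 to 3, 655, 642 and 694 CPM in yoked 1 to 3, and 745, 706 and 664 CPM in saline 1 to 3, against 824 CPM in the input. No pull-down reached the input, and cocaine 3 was lowest. The groups overlapped, and the means were 628 ± 79.3, 664 ± 27.3 and 705 ± 40.5 CPM for cocaine, yoked and saline.

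Rarb encodes retinoic acid receptor beta, which is itself a target of retinoic acid. The level was 300, 312 and 257 CPM in cocaine 1 to 3, 293, 310 and 214 CPM in yoked 1 to 3, and 317, 320 and 300 CPM in saline 1 to 3, against 171 CPM in the input. Yoked 3 and cocaine 3 were lowest, and the other 7 pull-downs lay between 293 and 320 CPM. The groups overlapped.

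Rxrg encodes retinoid X receptor gamma, a dimer partner of Rarb. It was read at 126, 131 and 114 CPM in cocaine 1 to 3, at 128, 117 and 103 CPM in yoked 1 to 3, and at 159, 155 and 126 CPM in saline 1 to 3, against 87.6 CPM in the input. Saline 1 and saline 2 stood above the other 7 pull-downs, which lay between 103 and 131 CPM. Saline 3 was inside the range of both other groups.

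**Figure D1:**
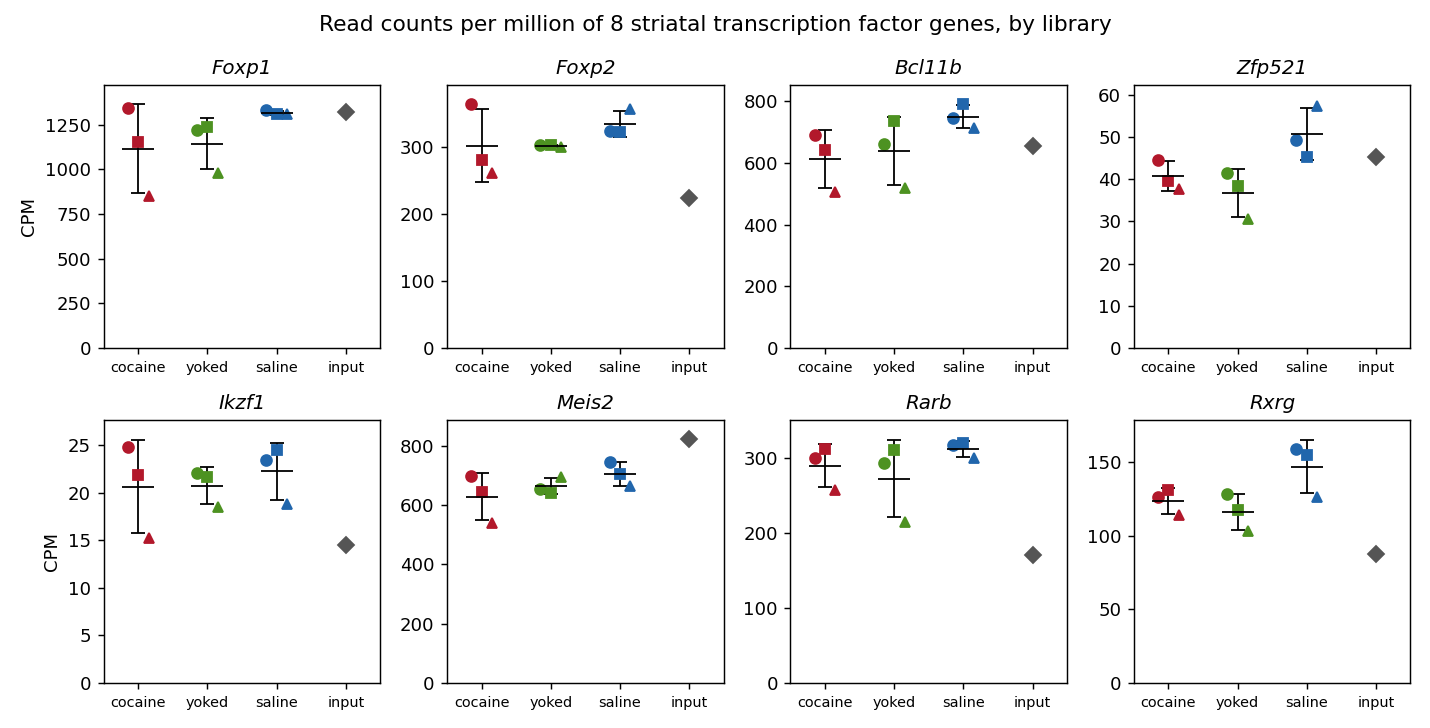
Level of each of the 8 genes in CPM (linear axis from 0) in cocaine, yoked and saline pull-downs and the input; circles, squares and triangles are libraries 1, 2 and 3, and black bars give the mean ± SD of 3. Saline means are the highest of the 3 groups in all 8 panels, and triangles of the cocaine and yoked groups are low in most.

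In all 8 genes the saline libraries had the highest mean CPM of the 3 groups, a pattern that 38.9% of the 14680 tested genes also showed. Between the other groups the order varied, with cocaine above yoked for Rarb, Rxrg and Zfp521, and below it for the other 5 genes. Differences between groups were tested with the quasi-likelihood F test of edgeR over all 14680 genes that passed its filter on low counts, which all 8 genes did, with totals rescaled by the trimmed mean of M-values (TMM). P-values were adjusted by the method of Benjamini and Hochberg over all tested genes, and a gene was called when that adjusted p was under 0.05.

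Set against saline, cocaine pull-downs had lower fitted levels of all 8 genes, by amounts that did not pass the test. Of the 8 genes 0 were called, as were 0 of 14680 genes overall (0% called), and 0 of 8 had an unadjusted p under 0.05, against 2.84% of all tested genes. DESeq2 called 0 of the 8 and 1 gene in all, the unnamed transcript AK155692 (named after its value was seen), and limma-voom called 0. Log2 fold changes were below 0 in 8 of 8 genes with a median of -0.15, against 49.4% of all genes and a median of 0.0036. The range ran between -0.27 ± 0.15 for Zfp521 (SE, edgeR unadjusted p = 0.103) and -0.053 ± 0.18 for Ikzf1 (unadjusted p = 0.772), and every adjusted p was 0.999.

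Bcl11b and Zfp521 were the 2 of 8 genes whose cocaine libraries lay entirely below the saline libraries, which held for 7.31% of all tested genes. They did so also after TMM scaling, where the share over all genes was 5.08%. Bcl11b differed by -0.24 ± 0.14 on the log2 scale (95% interval -0.52 to 0.042) and Zfp521 by -0.27 (-0.57 to 0.033). Foxp1 and Rxrg both differed by -0.19 with overlapping libraries, and the fitted differences of Meis2, Foxp2 and Rarb were -0.11, -0.10 and -0.055. Without cocaine 3 the difference was -0.14 for Bcl11b, -0.050 for Foxp1, -0.042 for Meis2 and -0.000079 for Rarb, and without saline 3 it was -0.13 for Zfp521 and -0.018 for Foxp2.

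Yoked pull-downs also had lower fitted levels of all 8 genes than saline pull-downs, and here the 2 unadjusted p-values under 0.05 belonged to Zfp521 and Rxrg. Neither was called, nor was any of the 14680 genes (0%) by edgeR, DESeq2 or limma-voom. Zfp521 differed by -0.43 ± 0.15 on the log2 scale, or 0.742-fold (95% interval -0.73 to -0.13; edgeR unadjusted p = 0.0142, adjusted p = 0.999), lower in 3 of 3 yoked libraries. Rxrg differed by -0.30 ± 0.13, or 0.813-fold (-0.55 to -0.050; edgeR unadjusted p = 0.0338, adjusted p = 0.999). Over all genes, 1.84% had an unadjusted p under 0.05, and 0.681% did so with a lower level in yoked libraries.

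Leaving out single libraries moved both unadjusted p-values past 0.05. Leaving out saline 3, the library with the most Zfp521, gave -0.30 for that gene (edgeR unadjusted p = 0.0969). Saline 3 also held the most RNA of the 5 ependyma and choroid plexus markers by their sum. That sum was 17.6 to 88.2 CPM in yoked libraries and 34.3, 66.2 and 215 CPM in saline 1 to 3, against 143 CPM in the input. Most of it in saline 3 was Ttr, at 1.37, 4.07 and 147 CPM in saline 1 to 3. Enpp2 had 28.9, 58.0 and 63.7 CPM there, and Folr1 reached 0.342 CPM in saline 3. Foxj1 was level, at 2.36, 2.39 and 2.39 CPM, and Dynlrb2 was not higher in saline 3. The part of these markers in the Zfp521 difference was not tested. For Rxrg the unadjusted p was 0.121 without saline 1, 0.102 without saline 2, 0.0615 without yoked 2 and 0.0530 without yoked 3, with differences between -0.30 and -0.24, and it was 0.0658 with no filter on low counts. With replicate number as a block, Zfp521 had an edgeR unadjusted p of 0.0181 and Rxrg of 0.0368, and 1 gene was called (adjusted p = 7.71e-10), the pituitary hormone gene Gh, which was named after its value was seen. Gh had 340, 1.12 and 1.11 CPM in saline 1 to 3 and 0.259, 0 and 0 CPM in yoked 1 to 3.

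Foxp1, Foxp2 and Zfp521 were the 3 of 8 genes whose yoked libraries lay entirely below the saline ones in CPM, against 4.42% of all genes. After TMM scaling the 3 were Foxp1, Rxrg and Zfp521, against 3.39%, since scaling brought Foxp2 of yoked 3 above saline 1 and saline 2, and Rxrg of yoked 1 below saline 3. Fitted differences of the other genes were -0.19 for Bcl11b, -0.16 for Foxp1 and Rarb, -0.11 for Foxp2, -0.055 for Ikzf1 and -0.042 for Meis2. Without yoked 3 the difference was -0.086 for Bcl11b, -0.084 for Foxp1 and -0.035 for Rarb, and without saline 3 that of Foxp2 was -0.025. The median over the 8 genes was -0.16, and 8 of 8 were below 0, against a median of 0.026 and 45.0% below 0 over all genes. The cocaine and yoked comparisons share the saline libraries, so they are not separate evidence of a direction. A fold change below 0 in both was found for 8 of 8 genes and for 29.9% of all genes.

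Between cocaine and yoked pull-downs the fitted differences of the 8 genes ran between -0.072 and 0.16, 5 above 0 and 3 below, with a median of 0.0049 and 0 of 14680 genes called (0%) by edgeR, DESeq2 and limma-voom. None of the 8 had an unadjusted p under 0.05, against 2.58% of all genes. None of the 8 had groups that did not overlap, as 3.60% of all genes did with cocaine lower and 2.87% with cocaine higher, and 54.5% of all genes were below 0, with a median of -0.026. Zfp521 was at 0.16 ± 0.15, Rarb and Rxrg at 0.11 ± 0.14 and 0.11 ± 0.13, Foxp2 at 0.0073, Ikzf1 at 0.0024, Foxp1 at -0.027, Bcl11b at -0.045 and Meis2 at -0.072. Intervals of 95% for these differences reached 0.46 upward, for Zfp521, and -0.35 downward, for Ikzf1, so differences of that size were within the error of 3 libraries a group.

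**Figure D2:**
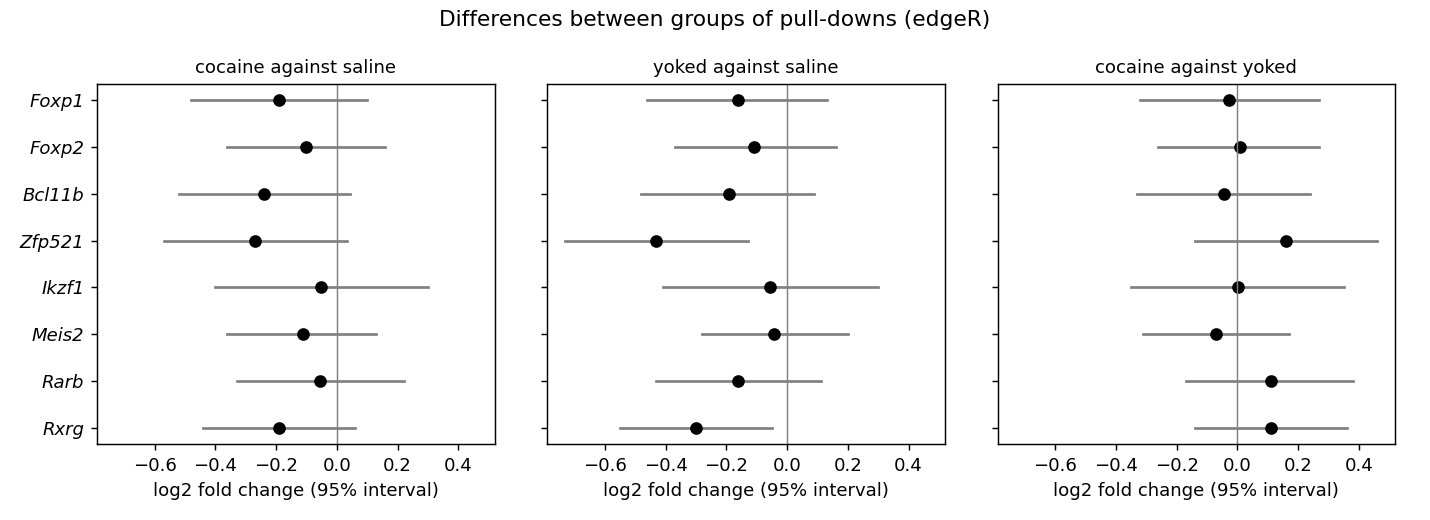
Log2 fold change of the 8 genes (points) from the edgeR fit with its 95% interval (lines, from the SE and the normal distribution), for cocaine against saline, yoked against saline and cocaine against yoked pull-downs. All 8 points lie below 0 in both comparisons with saline, and the intervals of Zfp521 (-0.73 to -0.13) and Rxrg (-0.55 to -0.050) against saline in the yoked panel do not reach 0.

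Spread within the 8 genes was mostly low. The coefficient of variation of TMM-scaled CPM over the 9 pull-downs ran between 6.90% for Meis2 and 17.1% for Zfp521, and 7 of 8 genes were below the median of 16.5% over the 11895 tested genes that averaged at least 50 counts. That set was not matched to the 8 genes by count, and the 8 had at least 307 counts in every library. Several of the genes deviated together in single libraries. Cocaine 3 was below the mean of the 9 for 8 of 8 genes (median deviation -0.20 on the log2 scale) and yoked 3 for 6 of 8 (median -0.23), while saline 2 was below it for 0 of 8 (median 0.10). The matching shares of all tested genes are not given here, so these counts are not shown to be particular to the 8 genes. Foxp1 and Ikzf1 deviated most in cocaine 3, by -0.40 and -0.39, and Rarb most in yoked 3, by -0.37. Zfp521 deviated most in saline 3, by 0.47, and by -0.40 in yoked 3.

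Markers of other cells moved with these libraries too. Summed over 7 astrocyte markers, cocaine 1 to 3 held 326, 270 and 142 CPM, yoked 1 to 3 held 354, 818 and 154 CPM, and saline 1 to 3 held 258, 461 and 156 CPM, against 2155 CPM in the input. Libraries numbered 3 were thus the lowest of each group. The 8 markers of all medium spiny neurons summed to 14241 to 17932 CPM in cocaine, 14886 to 16583 CPM in yoked and 16220 to 17813 CPM in saline libraries, against 12407 CPM in the input. The 9 markers of cortical glutamatergic neurons summed to 87.1 to 116 CPM in cocaine, 45.1 to 128 CPM in yoked and 37.8 to 94.8 CPM in saline libraries, against 172 CPM in the input. No list had a marker at 0 in all pull-downs, and the part of these cells in the differences was not tested. In bulk libraries, fewer cells of a type and less RNA per cell cannot be told apart.

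**Figure D3:**
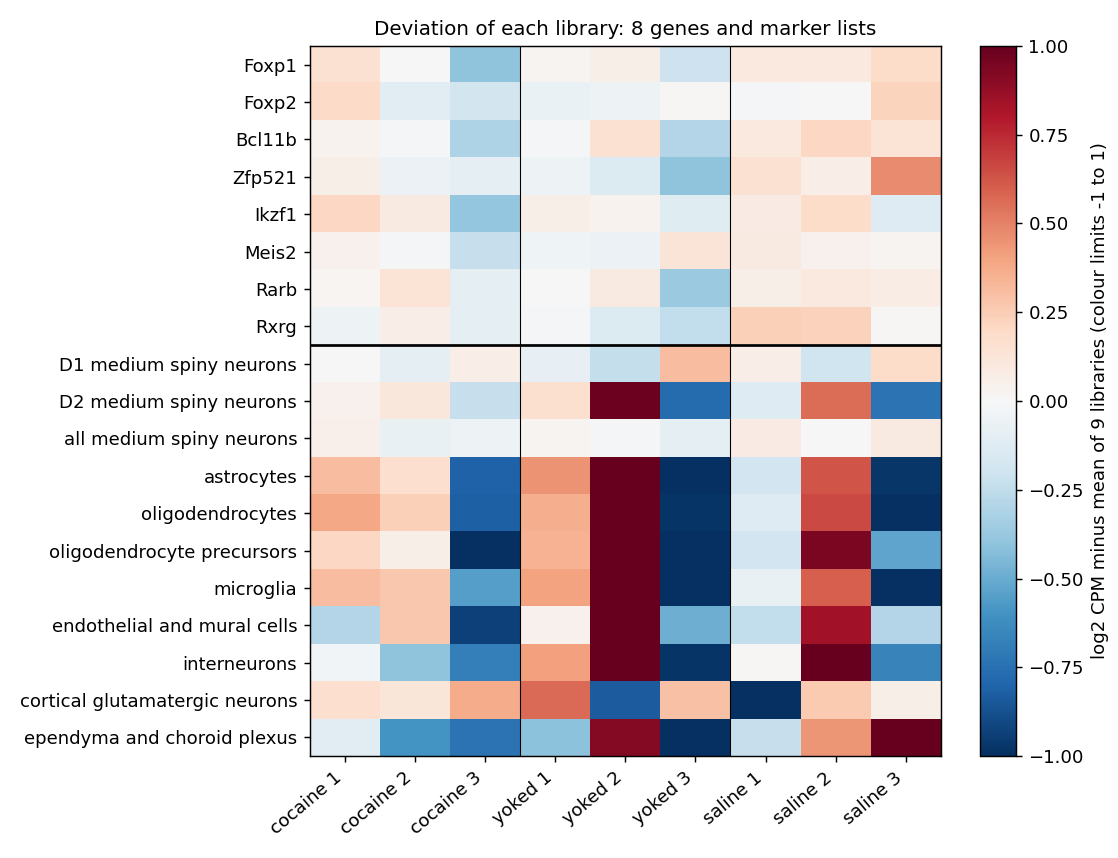
Log2 CPM in each of the 9 pull-downs minus the mean of the 9, for the 8 genes (above the line) and for the marker lists (mean over each list, below it), with colours limited to -1 to 1. Cocaine 3 is blue for 8 of 8 genes, and the colours of glial lists are far stronger than those of the 8 genes.

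Against the input, the 8 genes divided by their share of reads in the D1 pull-downs relative to their share in the input. The ratio was computed in each pull-down as log2 of CPM + 0.5 over input CPM + 0.5, so the 9 values share the 1 input library, and no test was made. Rarb, Rxrg, Ikzf1 and Foxp2 were above the input in 9 of 9 pull-downs, which held for 28.5% of tested genes. Meis2 was below it in 9 of 9, which held for 33.4%. None of the 8 was at least 1.5-fold above the input in every pull-down, as 9.09% of tested genes were, or at least 1.5-fold below it, as 14.9% were.

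Rarb had the highest mean ratio, 0.76 ± 0.19 on the log2 scale (SD over 9 pull-downs), or 1.69-fold, and was at least 1.5-fold above the input in 8 of 9. In cocaine 1 to 3 its ratio was 0.81, 0.87 and 0.59, in yoked 1 to 3 it was 0.78, 0.86 and 0.32, and in saline 1 to 3 it was 0.89, 0.91 and 0.81. Yoked 3 was the exception below 1.5-fold. Its partner Rxrg averaged 0.54 ± 0.20, or 1.45-fold, with the highest values, 0.86 and 0.82, in saline 1 and saline 2.

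Foxp2 averaged 0.47 ± 0.15, or 1.39-fold, and Ikzf1 averaged 0.52 ± 0.22, or 1.43-fold. The ratio of Ikzf1 was 0.75, 0.58 and 0.068 in cocaine 1 to 3, 0.59, 0.56 and 0.34 in yoked 1 to 3, and 0.67, 0.74 and 0.36 in saline 1 to 3. Its input level of 14.5 CPM had an exact Poisson 95% interval of 13.4 to 15.7 CPM, which covers counting error only, and which cocaine 3, at 15.2 CPM, did not leave. The 8 microglial markers summed to 6.75 to 13.6 CPM in cocaine, 4.82 to 26.9 CPM in yoked and 6.07 to 16.4 CPM in saline libraries, against 79.7 CPM in the input. Their sum was thus lower in every pull-down than in the input, and the part of microglia in the Ikzf1 ratio was not tested.

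Bcl11b and Foxp1, and also Zfp521, were near the input. Bcl11b averaged 0.0089 ± 0.23 and was above the input in 6 of 9 pull-downs, and scaling all 10 libraries by TMM gave -0.015. Zfp521 averaged -0.10 ± 0.26 and was above the input in 3 of 9, all of them saline libraries. Foxp1 averaged -0.16 ± 0.23, between -0.63 in cocaine 3 and 0.024 in cocaine 1. Meis2 averaged -0.31 ± 0.13, or 0.805-fold, with its lowest value of -0.61 in cocaine 3. For scale, Drd1 itself averaged 1.05, or 2.07-fold, with 708, 592 and 682 CPM in cocaine 1 to 3, 645, 594 and 930 CPM in yoked 1 to 3 and 706, 608 and 755 CPM in saline 1 to 3. Of the 8 markers of all medium spiny neurons, 7 averaged above the input and 1 below, with a median of 1.15-fold. The highest of them, Ppp1r1b and Pde1b, were at 1.92-fold and 1.85-fold, above Rarb.

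**Figure D4:**
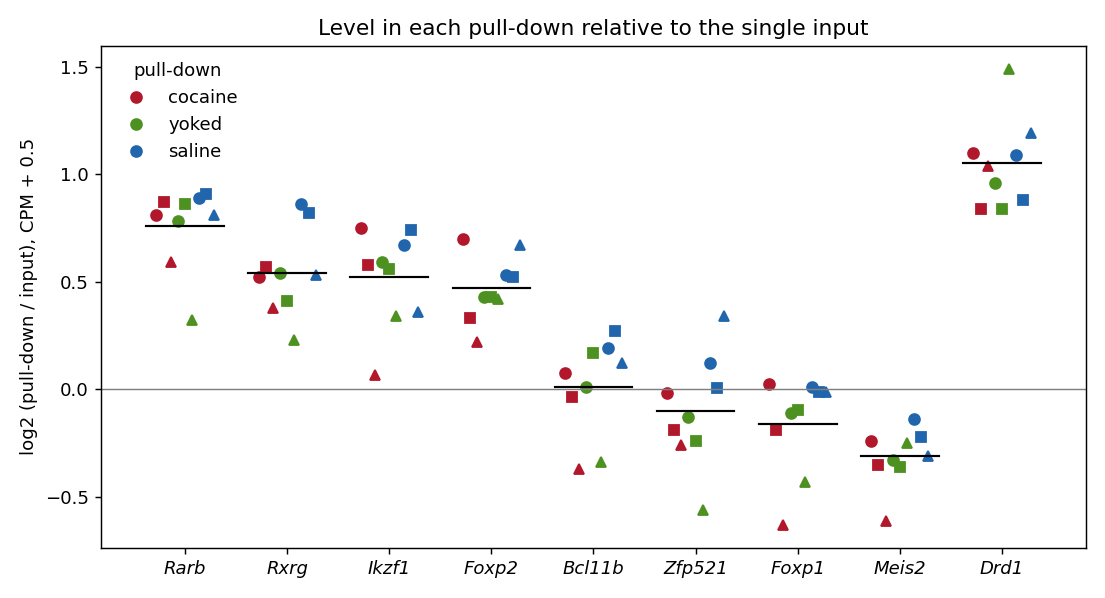
Log2 ratio of each pull-down to the single input (pseudocount 0.5 CPM) for the 8 genes and Drd1, ordered by mean; colours give the group, circles, squares and triangles libraries 1, 2 and 3, and black lines the mean of 9. Rarb (mean 0.76), Rxrg, Ikzf1 and Foxp2 lie above 0 in all 9 pull-downs, Meis2 (mean -0.31) lies below 0 in all 9, and Drd1 averages 1.05.

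Each gene was also set beside its relatives within the same libraries, so that a library's own scaling cancels. Foxp2 had a higher ratio to input than Foxp1 in 9 of 9 pull-downs, by 0.64 ± 0.14 on the log2 scale (SD over 9). Among the retinoic acid receptors, Rarb was above Rara by 1.74 ± 0.26 and above Rarg by 1.51 ± 0.30, in 9 of 9 pull-downs each. Rara averaged -0.98 and Rarg -0.75 against the input. Of the 3 receptors, Rarb alone averaged above the input.

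The retinoid X receptors did not split in the same way. Rxrg was above Rxra by 0.80 ± 0.17 in 9 of 9 pull-downs, but below Rxrb by 0.36 in 9 of 9, since Rxrb averaged 0.90 (1.87-fold over the input). Rxrb had 38.6, 45.2 and 42.6 CPM in cocaine 1 to 3, 44.7, 40.6 and 29.1 CPM in yoked 1 to 3 and 51.2, 46.4 and 33.4 CPM in saline 1 to 3, against 21.6 CPM in the input. Its ratio was positive in every pull-down.

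Among zinc finger relatives, Zfp521 was above its paralog Zfp423 by 2.27 ± 0.48, and Ikzf1 above Ikzf2 by 3.0 ± 0.36, in 9 of 9 pull-downs each. Ikzf2 averaged -2.49 and Zfp423 averaged -2.37, the lowest ratios among relatives and partners. Ikzf1 was also above Ikzf4, by 0.73, and Ikzf5, by 0.98. Bcl11b was below its relative Bcl11a in 9 of 9, with a gap of -0.42 ± 0.19, and Bcl11a averaged 0.43.

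Meis2 was above Meis1 in 9 of 9 pull-downs, by 0.62 ± 0.45, and below Meis3 in 9 of 9, with a gap of -0.94 ± 0.23. Meis1 averaged -0.93 and Meis3 0.63 against the input. Of the PBX partners, Pbx4 averaged 1.0, the highest of all relatives and partners. Pbx4 was a low-count gene, with 8.88, 9.51 and 10.8 CPM in cocaine 1 to 3, 10.1, 7.21 and 9.02 CPM in yoked 1 to 3 and 11.9, 9.26 and 7.61 CPM in saline 1 to 3, against 4.39 CPM in the input.

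**Figure D5:**
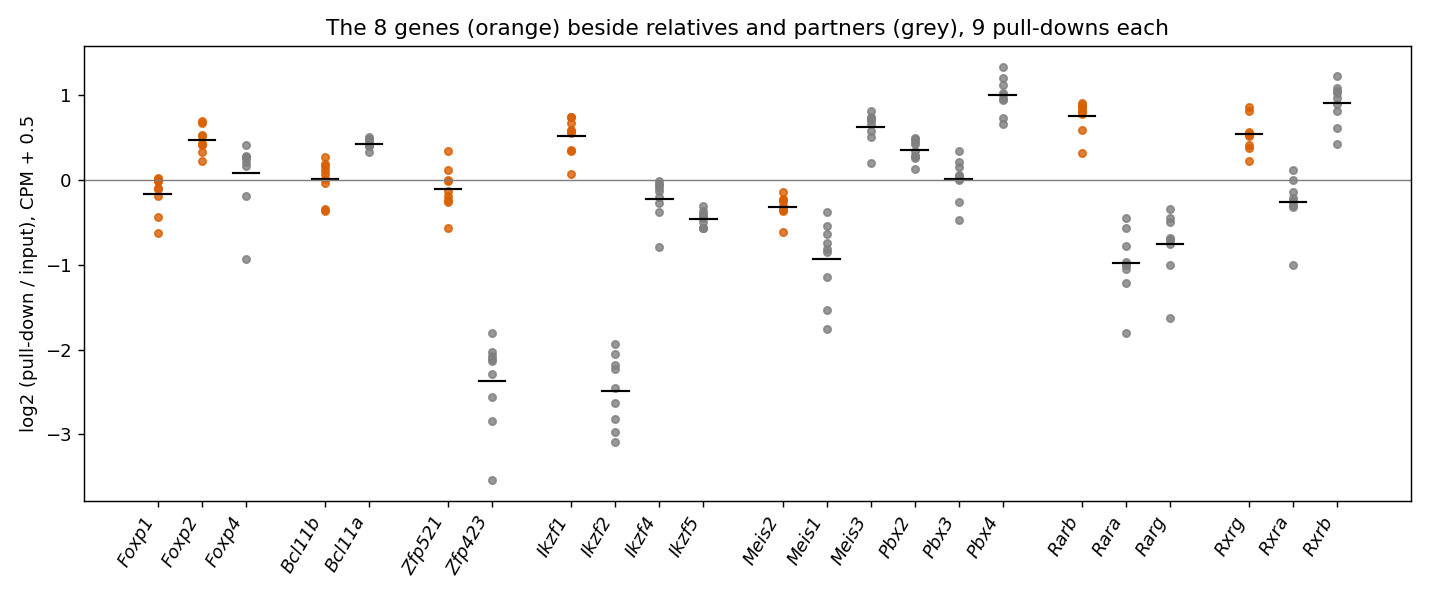
Log2 ratio to the single input in each of the 9 pull-downs (points) with the mean (black line), for the 8 genes (orange) and 15 of their relatives and partners that averaged at least 50 counts (grey), grouped by family. Rarb stands above Rara and Rarg, Zfp521 above Zfp423 and Ikzf1 above Ikzf2 in 9 of 9 pull-downs, while Rxrg is below Rxrb, Bcl11b below Bcl11a and Meis2 below Meis3.

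Genes that work with the 8 were described by lists of relatives and partners, of other striatal transcription factors, of retinoic acid handling and of corepressors. Over the genes of each list that averaged at least 50 counts, the median log2 ratio to input was 0.24 for the 8 genes, -0.24 for 16 relatives and partners, 0.069 for 14 other striatal factors, 0.053 for 7 retinoic acid genes and 0.23 for 16 corepressors and subunits of the NuRD deacetylase complex, against 0.080 for all 11895 such genes. Among other striatal factors, Isl1, a LIM homeodomain factor of direct-pathway neurons, averaged 1.28 and Dlx6 1.01, while Sp9, which marks indirect-pathway neurons, averaged -1.84. Isl1 and Dlx6 were thus further above the input than any of the 8 genes. The retinoic acid binding protein gene Crabp1 averaged 0.96 and the retinol carrier gene Rbp4 0.77, whereas Aldh1a1, an enzyme that makes retinoic acid, averaged -2.14. The deacetylase genes Hdac2 and Hdac3 averaged 1.19 and 0.90, and the NuRD subunit gene Gatad2a averaged -1.30.

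Between groups, 0 genes of these 4 lists were called in any comparison. Of 17 relatives and partners tested, 10 were above 0 and 7 below in cocaine against saline, with the highest value, 0.94 ± 0.57, for Ikzf3 (edgeR unadjusted p = 0.120). Ikzf3 was a low-count gene, with 4 to 36 counts per pull-down. In cocaine against yoked the extremes were 0.51 for Rarg and -0.62 for Ikzf2, with 10 above and 7 below. In yoked against saline, 5 were above and 12 below 0, between 0.92 ± 0.56 for Ikzf3 and -0.41 for Rxra. Rxra had 35.4, 34.5 and 20.3 CPM in yoked 1 to 3, against 44.4, 41.1 and 37.1 CPM in saline 1 to 3, groups that did not overlap (edgeR unadjusted p = 0.0394, adjusted p = 0.999).

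Among 14 other striatal factors tested, the extremes in cocaine against saline were 0.16 for Isl1 and -0.48 for Dlx2, with 5 above and 9 below 0. The highest was 0.20 for Dlx5 in cocaine against yoked, with 6 above and 8 below, and the lowest was -0.46 for Dlx1 in yoked against saline, with 6 above and 8 below. Dlx1 (26 to 149 counts per pull-down) and Dlx2 (30 to 179) had SEs of 0.51 and 0.67 for these values. Of the 17 corepressors and NuRD subunits, the extremes were 0.27 for Mta2 and -0.43 for Ctbp2 in cocaine against saline, 0.40 for Gatad2a and -0.42 for Ctbp2 in cocaine against yoked, and 0.33 for Hdac2 and -0.56 for Gatad2a in yoked against saline. Those above 0 numbered 10, 8 and 7 of 17 in the same order of comparisons. Ctbp2 had 11 to 72 counts per pull-down, and its differences from saline and yoked had SEs of 0.64 and 0.62.

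Retinoic acid genes, of which 10 were tested, had the widest fitted differences, several at very low counts. Crabp1 had 17.4, 21.3 and 29.7 CPM in cocaine 1 to 3, 16.2, 13.0 and 16.6 CPM in yoked 1 to 3 and 15.1, 15.4 and 16.0 CPM in saline 1 to 3. All 3 cocaine libraries were above all others in CPM. The log2 fold change was 0.62 ± 0.21 against saline (edgeR unadjusted p = 0.0120, adjusted p = 0.999) and 0.60 ± 0.21 against yoked (unadjusted p = 0.0134, adjusted p = 0.974, groups overlapping after TMM scaling), and it was the highest of its list against yoked. Crabp2, a second binding protein, had 0.395, 0.179 and 0.187 CPM in cocaine 1 to 3, 0.414, 1.81 and 0 CPM in yoked 1 to 3 and 0.669, 4.63 and 0.727 CPM in saline 1 to 3, and was the lowest of the list in all 3 comparisons (-2.86 for cocaine against saline, -1.51 for cocaine against yoked and -1.35 for yoked against saline). Its counts ran from 0 to 79 per library, so these fitted values depend on the prior count, and the first had an edgeR unadjusted p of 0.0365 (adjusted p = 0.999). Cyp26b1, which breaks retinoic acid down, was the highest in cocaine against saline (1.49 ± 1.11, edgeR unadjusted p = 0.201) and in yoked against saline (2.15 ± 1.10, edgeR unadjusted p = 0.0726). Its level was 0.243, 0.329 and 2.11 CPM in cocaine 1 to 3, and 0.544, 0.344 and 3.36 CPM in yoked 1 to 3. In saline 1 to 3 it was 0.458, 0.559 and 0.0428 CPM, so only cocaine 3 and yoked 3 were above the saline range. Rdh10, an enzyme of retinoic acid synthesis, was the other gene of the list with an unadjusted p under 0.05 in cocaine against yoked (-0.72 ± 0.32, edgeR unadjusted p = 0.0420, adjusted p = 0.974), at 5.75, 5.0 and 3.82 CPM in cocaine 1 to 3 and 5.36, 6.24 and 12.2 CPM in yoked 1 to 3. Counts above and below 0 were 5 and 5 against saline for cocaine, 4 and 6 for cocaine against yoked, and 5 and 5 for yoked against saline.

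The genes most like each of the 8 were taken from the 3 with the highest Pearson correlation of log2 CPM over the 9 pull-downs, among 11894 genes that averaged at least 50 counts. These 9 points share libraries, depth and group, and the values are a description only. Foxp1 was close to Surf6 (r = 0.966) and Tet1 (0.964), and Bcl11b most like Exoc6b (0.979), Mark1 (0.979) and Ppp1r10 (0.978). Rarb went with Kif17 (0.989), Scmh1 (0.981) and Dnajb5 (0.974), and Ikzf1 with Shroom2 (0.979), Tppp (0.962) and Ypel2 (0.961). Meis2 was closest to Cacnb4 (0.956), Fam198b (0.952) and Aftph (0.945), and Zfp521 to Adora1 (0.945), N28178 (0.940) and Mark2 (0.927). Foxp2 was closest to Ctnnd2 (0.937), Zfp143 (0.900) and Tlk2 (0.899), and Rxrg to Adamtsl5 (0.908), Stx6 (0.900) and Rev1 (0.895). Among the 8 genes themselves, r was highest between Foxp1 and Bcl11b (0.907) and lowest between Meis2 and Rarb (-0.140).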

How the data were processed

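RNA of 9 immunopurified pull-downs and 1 input was measured, and the authors deposited raw counts of reads for each gene symbol. The submitters' processing notes name STAR 2.0.0e, HTSeq and the mm10 build. Which annotation and strand setting were used is not given in the sources used here, so reads of genes that overlap on opposite strands cannot be told apart. Of the 32531 gene entries, 14680 passed filterByExpr. Entries that name no gene were left out: reads in no feature were 12.3% to 16.1% of a pull-down and 27.6% of the input, and ambiguous reads 2.54% to 3.03% and 6.63%.

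Computed here were CPM, log2 ratios to input with a pseudocount of 0.5 CPM, and group differences with edgeR 4.0.16 in R 4.3.3 (TMM, robust quasi-likelihood F test, group as the only term, all 9 pull-downs, Benjamini-Hochberg adjustment over all tested genes, threshold 0.05). The common biological coefficient of variation was 23.7%. DESeq2 1.42.0, limma-voom (limma 3.58.1), other scaling, no filter on low counts, a replicate block, only the groups compared, Rn45s left out and each library left out were alternatives. The edgeR procedure was tested on simulated counts. The members and all gene lists were chosen with earlier results of these data known. Named in every comparison were the 8 genes and Drd1, and of each other list the highest and lowest fold change, and the 2 highest and 2 lowest ratios to input among genes that averaged at least 50 counts; a few genes that this rule names are not reported here. No replicate pair was alike within sampling noise (chi-square of 15.3 to 169 for each degree of freedom).

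The replicate numbers come from the sample titles, and nothing says that they mark shared animals or days. Deviations from the group means correlated between yoked and saline libraries of the same number at 0.12, 0.27 and 0.29. The block is therefore given beside that comparison as an alternative. It was also run for the other comparisons, and the main fit kept group as the only term in all. In the other comparisons cocaine 1 correlated at 0.058 with saline 1 and at -0.065 with yoked 1. Cocaine 2 and cocaine 3 correlated with the same-numbered saline libraries at 0.32 and 0.36, and with the yoked ones at 0.14 and 0.26. Shared structure by number is thus not limited to yoked against saline. Promoter sequences are from RefSeq on GRCm38.p6; all 8 symbols matched its gene table and 6 had a window. Other cell type markers from the fixed lists were used as sums of CPM, and Drd1a, Hba-a1 and Hbb-bt were not used.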

Additional observations from a re-analysis of the deposited data

Results flagged for a closer look

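In the 9 pull-downs, the log2 ratio of Meis2 to the input was -0.61 in cocaine 3, while the other 8 lay between -0.36 and -0.14. The gap to the nearest library was 0.53 of the whole range, above Dixon's critical value of 0.49 for 9 values. Of the 8 genes examined in this way 1 stood out, and chance alone marks about 1 group in 20. In the same library Meis2 had 541 CPM, against 645 and 697 CPM in cocaine 2 and cocaine 1, and Rn45s took 20.5% of gene counts, the largest share of the 9 pull-downs. With Rn45s left out of the totals, the mean ratio of Meis2 over the 9 pull-downs was -0.28, against -0.31 with it. That mean does not show whether cocaine 3 still stood apart. After TMM scaling Meis2 had 568 CPM in cocaine 3 and 638 to 725 CPM in the other 8. The gap is given here on library totals only, so the flag may depend on scaling.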

How the results depend on the processing

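None of the 8 genes was called in any comparison under any of the 17 alternatives. Of 408 recomputed differences of the 8 genes, 384 kept their sign and their side of the threshold, and 24, in 9 of 24 results, changed sign. Cocaine against yoked changed sign for Ikzf1 with DESeq2 size factors (-0.0048), without the filter (-0.0044), with the replicate block (-0.015), in DESeq2 (-0.0046) and in limma-voom (-0.014), and for Foxp2 in limma-voom (-0.0015). Leaving out 1 library at a time gave ranges that crossed 0 for Ikzf1 (-0.17 to 0.10 in cocaine against saline, -0.12 to 0.16 in cocaine against yoked, -0.14 to 0.013 in yoked against saline). In cocaine against yoked the ranges also crossed 0 for Foxp1 (-0.15 to 0.11), Foxp2 (-0.12 to 0.076), Bcl11b (-0.15 to 0.064) and Rarb (-0.018 to 0.20). Without all 3 libraries numbered 3, a choice made after seeing the data, Foxp2 (0.051) and Ikzf1 (0.020) changed sign in cocaine against saline, and Foxp1 (0.036) and Meis2 (0.063) in cocaine against yoked; Zfp521 in yoked against saline was -0.21 (edgeR unadjusted p = 0.143).

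The number of genes called over all 14680 moved between 0 and 1. With the replicate block 1 gene was called in each comparison, Gh, with an adjusted p of 1.85e-08 for cocaine against saline, 0.00308 for cocaine against yoked and 7.71e-10 for yoked against saline. Gh had 340, 1.12 and 1.11 CPM in saline 1 to 3, so its high level against saline was that of 1 library. It had 3.28, 0.0299 and 0.0311 CPM in cocaine 1 to 3 and 0.259, 0 and 0 CPM in yoked 1 to 3, against 2356 CPM in the input. Same-numbered libraries correlated at 0.058, 0.32 and 0.36 in cocaine against saline, where each correlated best with its own number, and at -0.065, 0.14 and 0.26 in cocaine against yoked, where cocaine 1 did not. In cocaine against saline 1 gene, AK155692, was called in DESeq2 (adjusted p = 0.00194), with only the 2 groups compared (0.00124), and without the libraries numbered 3 (0.0271). Leaving out 1 library at a time gave 0 to 1 genes in cocaine against saline and in yoked against saline, 1 in each without yoked 3, again AK155692. The cause of these moves was not tested. For each of the 8 genes, all 13 alternatives left the mean ratio to input within 1 SD of its value. At 3 libraries a group and a spread of 23.7%, and with 1 input, small differences were beyond reach.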

Other observations

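Gene span, the distance from a gene's first to its last base in RefSeq, was compared with the fold changes because several of the 8 genes are long. Of the 13288 tested genes with a span, 882 reached at least 200 kb, among them 5 of the 8, namely Foxp1 (597 kb), Foxp2 (541 kb), Rarb (651 kb), Zfp521 (286 kb) and Meis2 (206 kb). In cocaine against saline 72.3% of the 882 genes had a log2 fold change below 0 (median -0.11), against 49.4% of all tested genes. In cocaine against yoked 74.4% did (median -0.12), against 54.5% of all tested genes. In yoked against saline 50.5% did (median -0.0013), against 45.0%. The first 2 comparisons share the cocaine libraries. Median deviations of the 882 genes from the mean of the 9 pull-downs were 0.044, -0.16 and -0.087 in cocaine 1 to 3, -0.028, 0.072 and 0.038 in yoked 1 to 3, and 0.0069, -0.0023 and 0.11 in saline 1 to 3, so cocaine 1 did not share the low values of cocaine 2 and cocaine 3. The relation was seen in the data first and was not tested.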
